A study of Mus musculus with 9 samples.

Results

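The comparison described here is between 3 cell lines grown from brain metastases and 3 grown from primary tumors of 4T1, a murine breast cancer cell line that forms metastases in distant organs. The members are the 3 arrays titled as brain metastases (4T1-BM2) and the 3 titled as primary tumors (4T1-T2), chosen by title alone, and they are 6 of the 9 arrays of the study. The other 3 arrays, of lung metastases (4T1-LM2), entered the model to share in its estimate of the spread, and their levels are given beside some genes. Each line came from a different mouse, was measured on 1 array, and was thawed, grown and extracted side by side with the rest. The labels give no strain, age or treatment of the mice, and no genetic change or agent beyond the parental 4T1 cells. They give the lines of 1 origin a common name without saying what it stands for, so the lines of an origin may share an ancestor, and the p-values measure only the spread between these lines. The values describe cells in culture, not tumor tissue. The largest single changes between brain and primary lines lie in genes such as Gatm and Slc14a1; the description below is of the other genes, by function.

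A carcinoma cell that leaves the mammary gland takes up nutrients through carriers in its membrane, reads signals through receptors, holds to its neighbors through junctions and recycles its own material in lysosomes. Transport is carried largely by the solute carrier (Slc) family, in which each protein moves a small set of amino acids, metals, ions or vitamins. Tight junctions, built from claudins and from scaffold proteins such as cingulin, seal epithelial sheets and set the apical side of the cell. Lysosomes and the autophagy machinery break down proteins and organelles. Genes were grouped into 64 lists along these lines.

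Each array gave a log2 level for 19938 genes, on which a difference of 1 is a 2-fold change. The median level of all 35557 probe sets lay between 5.06 and 5.19 on the arrays, and the median level of the 12147 probe sets without a gene name was 4.18. Genes with a group mean below this level are given without a fold or log2 change. The spread of an array's genes around their medians over the 9 arrays (interquartile range) was 0.119 to 0.178 in the brain lines, widest in brain line 3, against 0.0903 to 0.111 in the primary lines. Each change is brain minus primary, with its standard error (SE) from limma and a Benjamini-Hochberg adjusted p over all genes. The number of arrays limits the precision.

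Most of the difference between brain and primary lines was made of changes under 2-fold. Of 19938 genes, 624 passed an adjusted p under 0.05 (3.13%), 311 higher in the brain lines (1.56%) and 313 lower (1.57%). Among them 507 changed by less than 2-fold, and the size of the log2 change ranged from 0.28 to 3.19 with a median of 0.59. In 3555 genes (17.8%) every brain line lay on 1 side of every primary line, a set that held all 624. Many calls did not hold when 1 line was left out. With primary line 1, 2 or 3 left out the count fell to 319, 273 or 366, and with brain line 1, 2 or 3 left out to 485, 338 or 413. Without lung line 1, 2 or 3, which are not part of the contrast, it fell to 556, 417 or 428, and with the lung lines left out altogether to 197. These fits also have fewer arrays, so a lost call cannot be laid to the line left out alone. In all, 196 genes (0.983%) passed in each of the 9 fits that left out 1 line, 96 higher (0.481%) and 100 lower (0.502%). The balance of rises and falls also moved with scaling. It was 313 higher and 199 lower with each array centred on the median of its probe sets, and 459 higher and 218 lower with each array centred on the median of its genes, settings that moved the median change of all genes from 0.0048 to 0.05 and 0.07.

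**Figure D1:**
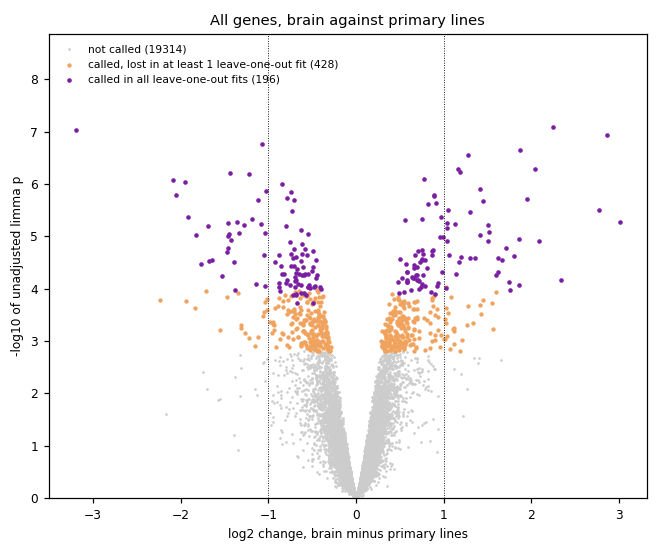
Log2 change between brain and primary lines (horizontal axis) against -log10 of the unadjusted limma p (vertical axis), 1 point per gene, with dotted lines at a 2-fold change. The 196 genes called in every fit that left out 1 line lie on both sides, and 122 of them lie inside the dotted lines.

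The lists held 5596 of the genes and 201 of the 624 calls, and 3 of the lists had no called member. Described below first are 58 of the 60 named genes whose call held in each of the 9 fits. A gene whose call did not hold is given with the lines without which it was lost. All named as called have 3 brain values that lie wholly above or below the 3 primary values. Of the 190 called genes that the rule named, 13 had another probe set, and it moved the same way in 12, though not in Gsdme. The same direction does not mean the same size: in Zic5 the other probe set moved by 0.22, against 0.86 in the one used. Those of Igf2bp1 and Gsdme lay below the level of the unnamed probe sets in both origins.

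**Figure D2:**
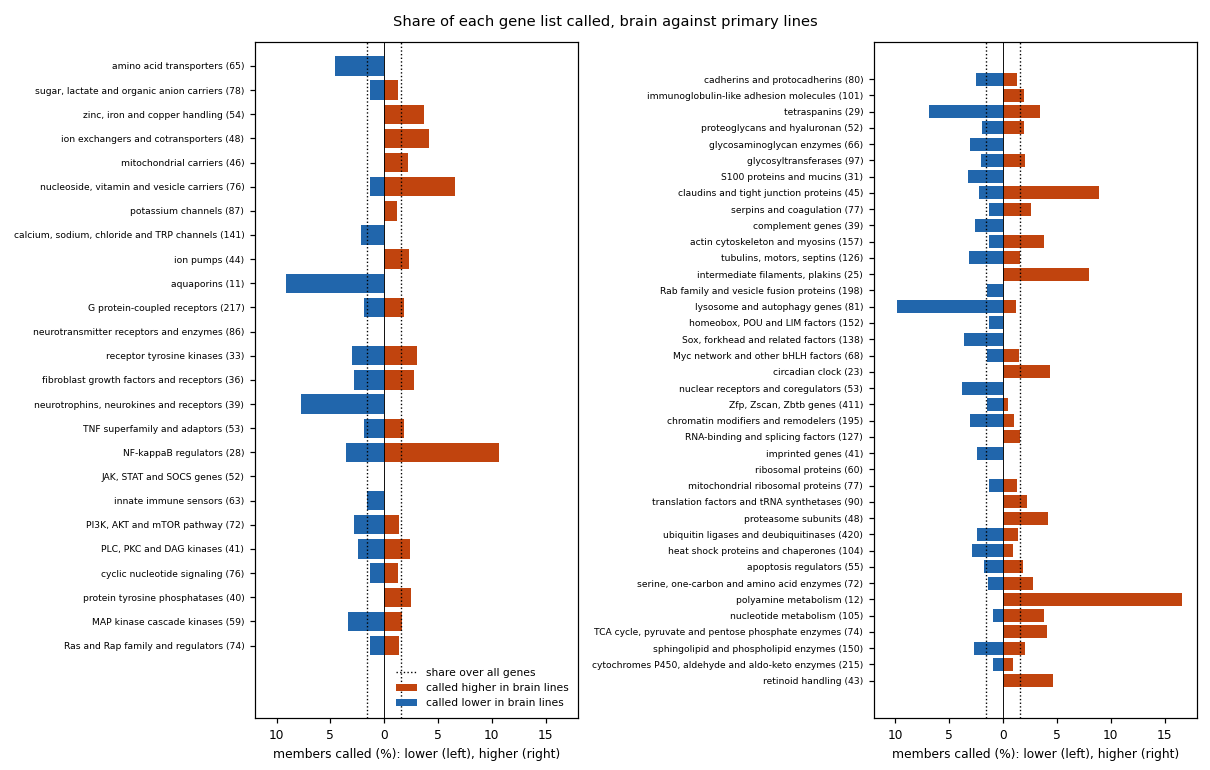
Share of the members of each of 63 gene lists called lower (blue, to the left) and higher (red, to the right) in brain lines, with the number of members in brackets and the share over all genes as dotted lines at 1.57% and 1.56%. Lysosome and autophagy genes reach furthest left, and polyamine metabolism (2 of 12 genes), NF-kappaB regulators and claudins and tight junction proteins reach furthest right. Neither polyamine call held in every fit that left out 1 line, and the number of higher calls there was 0 to 2 in those fits.

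Both origins carried the markers of a carcinoma epithelium. All 9 markers of that list lay above the level of the unnamed probe sets in both origins, with mean levels over the list of 10.7 to 10.9 in the brain lines and 9.70 to 10.2 in the primary lines. Of these 9, Cldn3, Krt19 and Cdh1 were called higher and none lower, with a median log2 change of 0.90. Each of these calls was lost when some lines were left out. The call of Cldn3 did not hold without brain lines 2 or 3 (adjusted p up to 0.0712). That of Krt19 did not hold without brain lines 1, 2 or 3, or lung lines 2 or 3 (adjusted p up to 0.0884). That of Cdh1 did not hold without brain lines 1, 2 or 3, or lung lines 1, 2 or 3, or primary lines 2 or 3 (adjusted p up to 0.113). Krt8 and Krt18, the keratin pair of simple epithelia, had log2 differences of -0.08 and 0.07 and did not pass. Because each value is an average over a culture, a higher share of cells with epithelial genes and more RNA of them per cell cannot be told apart. Markers of cells of the brain were at mixed levels. Gfap, the astrocyte filament protein, had mean levels of 4.42 in the brain and 4.47 in the primary lines, and Aif1 of microglia 3.43 and 3.50. Aldoc, an aldolase of the astrocyte list, was at 7.75 and 7.12 (log2 difference 0.64, adjusted p = 0.203), Map2 of the neuron list at 7.05 and 7.14, and Mbp of the oligodendrocyte list at 6.41 and 6.17. Below the level of the unnamed probe sets in both origins were 3 of 7 astrocyte, 2 of 7 microglia, 2 of 7 oligodendrocyte and 2 of 8 neuron markers. The mean over the astrocyte list was 4.59 to 4.71 in the brain lines and 4.50 to 4.60 in the primary lines, and that over the microglia list 4.58 to 4.72 and 4.66 to 4.74. No member of the astrocyte, microglia, neuron, endothelium, pericyte, fibroblast or leukocyte lists passed limma's test. Of the oligodendrocyte list only Cnp did, which was lower in brain lines (log2 change -0.57 ± 0.09, adjusted p = 0.0128).

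Amino acid carriers that passed were lower in the brain lines, though centring each array on the median of its probe sets or of its genes added 1 called higher. Of 65 amino acid transporters, 3 were called lower (4.62%, against 1.57% of all genes) and none higher. All 3 calls held in every fit that left out 1 line, and the median change over the list was 0.02. Slc7a11, the exchanger that brings in cystine for glutathione synthesis, had log2 levels of 5.61, 5.63 and 5.61 in the brain lines against 6.54, 7.21 and 7.38 in the primary lines. The brain lines were nearly level (SD 0.014), and every primary line was higher (log2 change -1.43 ± 0.17, SE, 3 lines per origin, adjusted p = 0.00386). Slc6a9, which imports glycine, read 6.82, 7.04 and 6.97 in the brain lines against 7.50, 7.57 and 7.82 in the primary lines (-0.69 ± 0.10, adjusted p = 0.00866). Slc1a4, a carrier of serine, alanine and cysteine, read 6.91, 6.92 and 6.95 in the brain lines against 7.38, 7.65 and 7.53 in the primary lines (-0.59 ± 0.09, adjusted p = 0.00816). The lung lines were at 6.51, 6.61 and 6.58 for Slc7a11 and 7.43, 7.20 and 7.29 for Slc6a9, above all 3 brain lines.

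Single carriers of metals and folate were called higher. Of 54 genes of zinc, iron and copper handling, 2 were called higher (3.70%, against 1.56% of all genes) and none lower. The median change over that list was 0.03. Slc39a4 (ZIP4), a zinc importer, read 6.75, 7.07 and 7.05 in the brain lines against 5.93, 5.39 and 6.03 in the primary lines (1.18 ± 0.16, adjusted p = 0.00597), and the lung lines, at 5.60, 5.36 and 5.54, lay below all brain lines. Slc11a2 (DMT1), which moves ferrous iron into the cytosol, read 8.48, 8.75 and 8.53 in the brain lines against 7.97, 7.97 and 8.08 in the primary lines (0.58 ± 0.08, adjusted p = 0.00791). Slc4a11, of the bicarbonate transporter family, was 3.27-fold higher (1.71 ± 0.22, adjusted p = 0.00491), with levels of 8.90, 8.91 and 9.50 in the brain lines against 7.58, 7.68 and 6.90 in the primary lines. Slc19a1, the reduced folate carrier, rose by 0.70 ± 0.11 (adjusted p = 0.0093), and Slc25a48, of the mitochondrial carrier family, by 0.78 ± 0.07 (adjusted p = 0.0013). Of the 76 nucleoside, vitamin and vesicle carriers, 5 were called higher (6.58%) and 1 lower (1.32%), against 1.56% and 1.57% of all genes. Only the call of Slc19a1 held in every fit, and without 1 line the number of higher calls fell to as few as 1. Slc5a3, which imports the osmolyte myo-inositol, was lower at 9.20, 8.85 and 8.22 in the brain lines against 10.18, 10.25 and 9.87 in the primary lines (-1.35 ± 0.22, adjusted p = 0.0122), a call that did not hold without primary lines 1 or 2 (adjusted p up to 0.0561). Channels were called at shares near those of all genes. Of 87 potassium channel genes 1 was called higher (1.15%, against 1.56% of all genes). Of 141 calcium, sodium, chloride and TRP channel genes 3 were called lower (2.13%, against 1.57%). None of these calls held in every fit.

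As many G protein-coupled receptors were called higher as lower. Of 217 members, 4 were called in each direction (1.84%, against 1.56% and 1.57% of all genes), and the 2 calls that held in every fit were falls. Adgre5 (CD97), an adhesion receptor with epidermal growth factor-like repeats, read 5.74, 5.87 and 5.43 in the brain lines against 7.03, 6.96 and 6.86 in the primary lines (-1.27 ± 0.14, adjusted p = 0.00271). Gprc5b, an orphan receptor, read 5.81, 5.58 and 5.78 in the brain lines against 6.73, 6.77 and 7.01 in the primary lines (-1.11 ± 0.11, adjusted p = 0.00159). In both, the brain and primary lines stood far apart, and the lung lines, at 6.71, 7.18 and 6.71 for Adgre5 and 6.70, 6.91 and 7.04 for Gprc5b, stood near the primary lines. Cxcr4, the receptor of the chemokine Cxcl12 and known for its part in breast cancer spread, read 5.35, 4.67 and 4.78 in the brain lines against 5.60, 5.75 and 5.78 in the primary lines (-0.78 ± 0.16, adjusted p = 0.0349), and this call did not hold without brain lines 2 or 3, or lung lines 1, 2 or 3, or primary lines 1, 2 or 3 (adjusted p up to 0.112). None of 86 genes of neurotransmitter receptors and enzymes passed the test; the smallest p-values there belonged to Grik5 (0.31 ± 0.10, adjusted p = 0.129) and Grin2d (-0.41 ± 0.14, adjusted p = 0.157).

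Cytokine and growth factor genes were called in both directions. Osmr, the receptor subunit for oncostatin M, read 5.59, 5.63 and 5.79 in the brain lines against 6.35, 6.73 and 6.33 in the primary lines (-0.80 ± 0.12, adjusted p = 0.01). Clcf1, a ligand of the same cytokine family, and Bdnf, a neurotrophin, were also called lower. The call of Clcf1 did not hold without brain lines 1, 2 or 3, or lung lines 2 or 3, or primary lines 1 or 2 (adjusted p up to 0.144), and that of Bdnf did not hold without brain lines 2 or 3, or lung lines 1, 2 or 3, or primary lines 1, 2 or 3 (adjusted p up to 0.139). In the list of 39 neurotrophins, neurokines and receptors these were the 3 calls (7.69%, all lower, against 1.57% of all genes), with a median change of -0.03, and 1 or 2 were called lower, and up to 1 higher, when any 1 line was left out. Csf1, the growth factor of macrophages, read 9.88, 9.89 and 9.72 in the brain lines against 9.17, 9.06 and 9.02 in the primary lines (0.75 ± 0.08, adjusted p = 0.00256). Fgfbp1, a secreted protein that binds fibroblast growth factors and frees them from the matrix, was 5.07-fold higher, at 7.01, 8.43 and 7.43 in the brain lines against 5.68, 4.70 and 5.47 in the primary lines (2.34 ± 0.35, adjusted p = 0.0093). In the fibroblast growth factor list of 36 genes, 1 was called higher and 1 lower (2.78% each, against 1.56% and 1.57% of all genes). The fall was in Flrt3 (-0.61 ± 0.12, adjusted p = 0.0263). That call did not hold without brain lines 1, 2 or 3, or primary lines 1 or 2 (adjusted p up to 0.0806). Tnfsf10 (TRAIL), a death ligand, had a mean level of 4.00 in brain lines, below the level of the unnamed probe sets, and 5.09 in primary lines. Of 52 JAK, STAT and SOCS genes none passed; Ifnar1 (-0.30 ± 0.08, adjusted p = 0.0826) and Socs6 (0.29 ± 0.08, adjusted p = 0.0862) came closest.

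More of the NF-kappaB regulators rose than fell. NF-kappaB is a family of transcription factors, held in the cytosol until inflammatory signals free them, whose targets include their own inhibitors. Of 28 members 3 were called higher (10.7%) and 1 lower (3.57%), against 1.56% and 1.57% of all genes. The median change of the list was 0.15 against 0.0048 over all genes. Tnip1, a partner of the inhibitor A20, read 7.72, 7.81 and 7.93 in the brain lines against 7.02, 6.78 and 7.01 in the primary lines (0.89 ± 0.09, adjusted p = 0.00159). Rel, the c-Rel subunit, read 7.59, 7.57 and 7.81 in the brain lines against 7.08, 7.07 and 6.84 in the primary lines (0.66 ± 0.10, adjusted p = 0.00886). Nfkb2, which encodes the p100 precursor of p52, rose by 0.58 ± 0.11 (adjusted p = 0.025), a call that did not hold without brain lines 2 or 3, or primary lines 2 or 3 (adjusted p up to 0.0747). Tnfaip2, a gene induced by tumor necrosis factor, went down, at 8.92, 9.07 and 8.71 in the brain lines against 9.51, 9.94 and 9.81 in the primary lines (-0.85 ± 0.12, adjusted p = 0.00677). The number of higher calls in this list was between 2 and 4 when any 1 line was left out.

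Inside the cell, single enzymes of several signaling routes changed. Plcg2, a phospholipase C of immune and growth receptors, read 8.38, 8.33 and 8.24 in the brain lines against 9.05, 9.16 and 9.28 in the primary lines (-0.84 ± 0.08, adjusted p = 0.00134). Pik3r1, the p85-alpha regulatory subunit of phosphoinositide 3-kinase, read 7.39, 7.37 and 7.19 in the brain lines against 7.91, 7.90 and 8.22 in the primary lines (-0.69 ± 0.11, adjusted p = 0.0096). Prkci, the atypical protein kinase C of the polarity complex, read 10.44, 10.40 and 10.61 in the brain lines against 9.89, 9.80 and 10.03 in the primary lines (0.58 ± 0.08, adjusted p = 0.00796). In cyclic nucleotide signaling, Pkia, a peptide inhibitor of protein kinase A, was 2.07-fold higher (1.05 ± 0.11, adjusted p = 0.00211), and Pde5a, the phosphodiesterase of cyclic GMP, was 2.08-fold lower (-1.05 ± 0.14, adjusted p = 0.00539).

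Tight junction genes that passed were mostly higher in the brain lines. Of 45 claudins and tight junction proteins, 4 were called higher (8.89%, against 1.56% of all genes), and the median change was 0.07. Cgn, which encodes the scaffold cingulin, read 7.88, 7.89 and 8.27 in the brain lines against 6.68, 6.30 and 6.98 in the primary lines (1.36 ± 0.18, adjusted p = 0.00568), and the lung lines were at 6.75, 6.96 and 7.22. Pard6b, a subunit of the Par polarity complex in which Prkci is the kinase, read 8.83, 9.44 and 9.26 in the brain lines against 7.93, 7.81 and 7.89 in the primary lines (1.30 ± 0.18, adjusted p = 0.00568). In both genes every brain line was above every primary and lung line. Cldn3 (1.43) and Cldn12 (0.64) were the other rises. The call of Cldn12 did not hold without brain lines 1 or 3, or lung lines 2 or 3, or primary lines 1, 2 or 3 (adjusted p up to 0.108). The 1 fall was in Cldn2, at mean levels of 3.64 and 4.04, both below the level of the unnamed probe sets, and its call did not hold without brain lines 1 or 2, lung line 3, or any of the primary lines (adjusted p up to 0.108). The number of higher calls was 2 to 5 when any 1 line was left out. The epithelial marker list described above, of which Cldn3 is also a member, was higher in the same lines, and its part in this result was not tested.

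Promoters of the called genes held GC boxes more often than those of all genes, in both directions. The RefSeq windows used (GRCm38.p6, each 300 bases long and reaching just past the annotated start) were at hand for 237 of the genes called higher, 232 of those called lower and 15563 of all genes. The GC box GGGCGG, the motif bound by Sp1-type factors, was found on either strand in 70.0% of the promoters of genes called higher and 72.8% of those called lower, against 49.9% of all promoters and 61.9% of the 11132 whose genes lay above the level of the unnamed probe sets in both origins. The median GC content was 62.0%, 62.2%, 57.7% and 60.7% in the same order. The median ratio of observed to expected CG pairs was 0.737, 0.720, 0.626 and 0.739. By that ratio the called genes were above all genes but not above the genes over the unnamed level. In the sentences that follow, the 4 shares are in that order too: genes called higher, genes called lower, all genes, and genes above the unnamed level. The TATA box TATAAA was in 5.49%, 9.91%, 12.1% and 7.59% of promoters. The AP-1 site TGACTCA was in 6.33%, 5.60%, 4.52% and 3.75%, and the forkhead motif TGTTTAC in 1.27%, 4.74%, 3.03% and 2.52%. The E-box CACGTG was in 8.44%, 6.90%, 8.40% and 9.78%, and the cyclic AMP response element TGACGTCA in 2.53%, 2.59%, 2.50% and 3.06%. The TEAD core GGAATG was in 14.3%, 14.7%, 13.1% and 12.2%, and the Ets palindrome TTCCGGAA in 0.844%, 0.862%, 0.874% and 1.09%. These are shares with no test, and a match is a description of the letters in the window. Shown are the promoters of 2 genes that rose (Cgn, chr3:94786433-94786732, minus strand; Pard6b, chr2:168080754-168081053, plus strand) and 2 that fell (Slc1a4, chr11:20332664-20332963, minus strand; Map1lc3b, chr8:121590188-121590487, plus strand), 5′ to 3′ with the GC boxes of either strand in capitals. They were chosen after their matches had been seen, to show that genes of both directions carry the motif, 6, 4, 3 and 1 times.
Cgn: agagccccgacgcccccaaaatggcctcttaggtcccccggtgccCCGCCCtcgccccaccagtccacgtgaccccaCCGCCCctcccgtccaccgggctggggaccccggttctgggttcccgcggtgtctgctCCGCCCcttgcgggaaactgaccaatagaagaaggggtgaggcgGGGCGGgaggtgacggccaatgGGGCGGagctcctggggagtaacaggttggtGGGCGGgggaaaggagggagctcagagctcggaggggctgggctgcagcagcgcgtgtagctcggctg
Pard6b: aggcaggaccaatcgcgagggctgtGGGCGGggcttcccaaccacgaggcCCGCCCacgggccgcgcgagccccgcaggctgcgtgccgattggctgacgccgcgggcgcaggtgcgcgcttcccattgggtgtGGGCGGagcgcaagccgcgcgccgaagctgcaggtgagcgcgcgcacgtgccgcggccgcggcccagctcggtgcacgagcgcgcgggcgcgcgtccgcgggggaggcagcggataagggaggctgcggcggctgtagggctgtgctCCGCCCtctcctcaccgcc
Slc1a4: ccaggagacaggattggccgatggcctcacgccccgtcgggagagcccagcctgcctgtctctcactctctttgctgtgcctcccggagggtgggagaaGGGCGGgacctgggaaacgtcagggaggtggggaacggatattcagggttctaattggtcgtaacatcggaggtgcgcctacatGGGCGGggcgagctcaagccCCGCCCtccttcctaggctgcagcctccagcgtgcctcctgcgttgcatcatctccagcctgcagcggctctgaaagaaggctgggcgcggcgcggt
Map1lc3b: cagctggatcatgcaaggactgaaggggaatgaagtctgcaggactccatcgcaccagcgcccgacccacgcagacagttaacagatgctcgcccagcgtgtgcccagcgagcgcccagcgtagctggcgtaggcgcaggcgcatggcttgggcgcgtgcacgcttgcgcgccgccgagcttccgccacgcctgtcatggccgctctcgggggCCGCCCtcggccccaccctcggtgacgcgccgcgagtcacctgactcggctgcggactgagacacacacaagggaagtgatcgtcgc

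Other surface and matrix genes changed in both directions. Podnl1, a small leucine-rich matrix protein, was 4.11-fold higher, at 9.25, 9.32 and 9.18 in the brain lines against 7.48, 6.77 and 7.39 in the primary lines (2.04 ± 0.18, adjusted p = 0.00116). Among 97 glycosyltransferases, 2 were called higher and 2 lower (2.06% each, against 1.56% and 1.57% of all genes). St6galnac4, which adds sialic acid to O-linked glycans, rose (0.75 ± 0.10, adjusted p = 0.00568), and St6gal1, which adds it to N-linked glycans, fell, at 7.64, 7.84 and 7.64 in the brain lines against 8.25, 8.42 and 8.21 in the primary lines (-0.59 ± 0.09, adjusted p = 0.00816). B4galnt3, which builds the LacdiNAc group, was 2.73-fold higher (1.45 ± 0.24, adjusted p = 0.0143), a call that did not hold without brain lines 2 or 3 (adjusted p up to 0.058). B4galt6, which makes lactosylceramide, was lower, at 5.52, 4.21 and 4.59 in the brain lines against 6.33, 6.47 and 7.34 in the primary lines (-1.94 ± 0.33, adjusted p = 0.0147), a call that did not hold without brain lines 2 or 3 (adjusted p up to 0.0539). Csgalnact1, which starts chondroitin sulfate chains, read 8.11, 8.46 and 8.22 in the brain lines against 8.95, 9.07 and 8.83 in the primary lines (-0.69 ± 0.10, adjusted p = 0.00816). Of 77 serpin and coagulation genes, 2 were called higher (2.60%) and 1 lower (1.30%), against 1.56% and 1.57% of all genes. The fall was in Serpinf1 (-0.33 ± 0.07, adjusted p = 0.0315). Of the fits that left out 1 line, that call held only without lung line 1 (adjusted p up to 0.108). The rises were in F3, tissue factor, and Procr, the endothelial protein C receptor. F3 read 6.20, 6.51 and 6.61 in the brain lines against 5.24, 5.91 and 5.36 in the primary lines (0.93 ± 0.17, adjusted p = 0.0222), a call that did not hold without brain lines 2 or 3, or primary lines 1 or 3 (adjusted p up to 0.0808). The call of Procr (0.79 ± 0.18, adjusted p = 0.0481) did not hold without brain lines 2 or 3, or lung lines 1, 2 or 3, or primary lines 1 or 3 (adjusted p up to 0.141). Of 80 cadherins and protocadherins and 101 immunoglobulin-like adhesion genes, 3 and 2 were called (3.75% and 1.98%, against 3.13% of all genes). None of those calls held in every fit.

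Of the few actin genes that passed more were higher, and of the few microtubule genes more were lower. Of 157 actin cytoskeleton and myosin genes, 6 were called higher (3.82%) and 2 lower (1.27%), against 1.56% and 1.57% of all genes. The median change was 0.02, and 2 rises and 1 fall held in every fit. Ablim1, which links actin to LIM domain proteins, read 7.95, 7.93 and 8.37 in the brain lines against 7.25, 6.99 and 7.06 in the primary lines (0.98 ± 0.14, adjusted p = 0.00791). Gsn, the actin-severing protein gelsolin, read 10.14, 10.51 and 10.26 in the brain lines against 9.41, 9.61 and 9.52 in the primary lines (0.79 ± 0.11, adjusted p = 0.00568), and its lung levels, 9.76, 10.01 and 9.89, lay between those of the brain and primary lines. Eps8, which caps and bundles actin, fell, at 9.72, 9.87 and 9.80 in the brain lines against 10.17, 10.26 and 10.20 in the primary lines (-0.41 ± 0.06, adjusted p = 0.0107). Of 126 tubulins, motors, septins and microtubule proteins, 2 were called higher (1.59%) and 4 lower (3.17%). The median change was -0.03, and 1 fall held in every fit. Stmn1, the microtubule-destabilizing protein stathmin, read 10.95, 10.92 and 10.98 in the brain lines against 11.36, 11.38 and 11.49 in the primary lines (-0.46 ± 0.06, adjusted p = 0.00568). Map1b and Clip2, which bind microtubules, fell by 0.54 and 0.47 on the log2 scale. The call of Map1b did not hold without primary line 1 (adjusted p = 0.051) and that of Clip2 did not hold without primary line 2 (adjusted p = 0.0553). When any 1 line was left out, higher calls in the actin list numbered 2 to 6 and lower calls in the microtubule list 2 to 5.

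**Figure D3:**
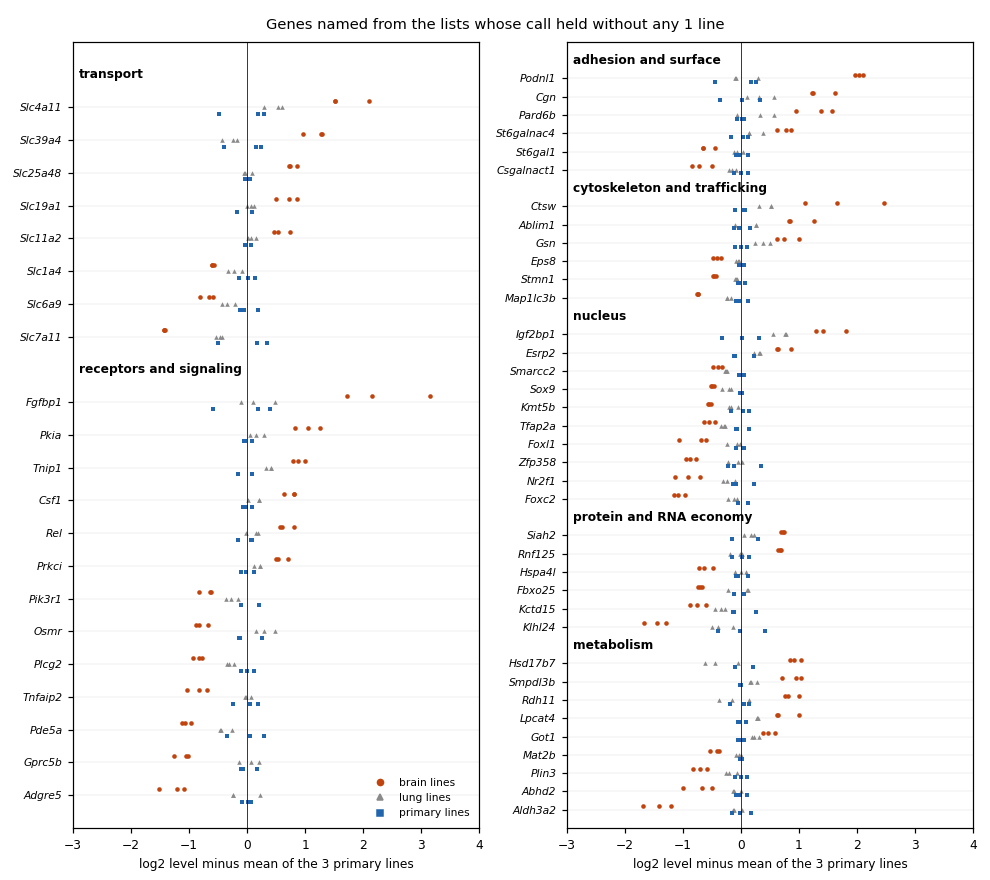
Log2 level of each line minus the mean of the 3 primary lines (horizontal axis) for 58 of the 60 named genes whose call held in every fit that left out 1 line, grouped by function, with brain lines as circles, lung lines as triangles and primary lines as squares. The 3 circles lie apart from the 3 squares in every gene, furthest in Fgfbp1, Podnl1 and Ctsw to the right and in Slc7a11, Klhl24 and Aldh3a2 to the left.

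Lysosome and autophagy genes were lower in the brain lines more often than higher. Of 81 members, 8 were called lower (9.88%) and 1 higher (1.23%), against 1.57% and 1.56% of all genes. The median change was -0.07. Map1lc3b, which encodes LC3B, the protein that coats the growing autophagosome, read 9.37, 9.36 and 9.38 in the brain lines against 10.02, 10.25 and 10.08 in the primary lines, with an SD of 0.01 over the brain lines (-0.74 ± 0.07, adjusted p = 0.00159). Gpnmb, a glycoprotein of lysosomes and melanosomes, was 3.27-fold lower, at 5.996, 6.89 and 6.45 in the brain lines against 8.42, 8.02 and 8.02 in the primary lines (adjusted p = 0.0118), a call that did not hold without primary line 1 (adjusted p = 0.0516). Tpp1, a lysosomal tripeptidase, read 7.17, 7.79 and 7.67 in the brain lines against 8.13, 8.39 and 8.35 in the primary lines (-0.74 ± 0.14, adjusted p = 0.0255), a call that did not hold without lung lines 2 or 3, or primary lines 2 or 3 (adjusted p up to 0.0966). Ctsh, the protease cathepsin H, fell by 0.55 on the log2 scale, and Wipi1, which binds early autophagosome membranes, by 0.48. The call of Ctsh did not hold without brain lines 2 or 3, or primary lines 1 or 2 (adjusted p up to 0.0653), and that of Wipi1 did not hold without brain lines 1 or 3, or primary lines 2 or 3 (adjusted p up to 0.0856). Gabarap, a relative of LC3B, Mcoln1, the calcium channel of lysosomes, and the autophagy kinase gene Ulk2 were the remaining falls, each with a log2 change of -0.43. The call of Gabarap did not hold without brain lines 2 or 3, or primary lines 2 or 3 (adjusted p up to 0.0858). That of Mcoln1 did not hold without brain lines 1 or 2, or primary lines 1 or 2 (adjusted p up to 0.0757), nor with each array centred on the median of its probe sets (adjusted p = 0.0515) or with the median of its chromosome taken off (adjusted p = 0.0723). That of Ulk2 did not hold without any of the 9 lines (adjusted p up to 0.11). The 1 rise was Ctsw, cathepsin W, at 6.19, 5.63 and 7.004 in the brain lines against 4.42, 4.58 and 4.59 in the primary lines (1.74 ± 0.27, adjusted p = 0.00973). The count of this group moved when 1 line was left out. The number of lower calls was 2 without primary line 2, 4 without brain line 3 or primary line 1, and at most 7 without any other line. It was 4 with each array centred on the median of its probe sets: Map1lc3b, Gpnmb, Tpp1 and Ctsh. The calls of Wipi1 (adjusted p = 0.0798), Gabarap and Ulk2 were lost there, as was that of Mcoln1.

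Sox, forkhead and related transcription factors that passed were all lower, though with each array centred on the median of its genes 2 were called higher and 4 lower, and without 1 line up to 1 was called higher. Of 138 Sox, forkhead, Klf, GATA, Runx, T-box and AP-2 factors, 5 were called lower (3.62%, against 1.57% of all genes) and none higher. Of these calls 4 held in every fit. Foxc2, a forkhead factor of mesenchymal cells, read 7.29, 7.40 and 7.21 in the brain lines against 8.31, 8.31 and 8.49 in the primary lines (-1.07 ± 0.08, adjusted p = 0.000868). Foxl1, a forkhead gene that neighbors Foxc2 on chromosome 8, read 5.43, 5.52 and 5.06 in the brain lines against 6.04, 6.17 and 6.16 in the primary lines (-0.78 ± 0.12, adjusted p = 0.00928). Sox9, a factor of progenitor cells in many epithelia, read 9.11, 9.07 and 9.06 in the brain lines against 9.57, 9.58 and 9.55 in the primary lines, with SDs of 0.026 and 0.015 (-0.49 ± 0.06, adjusted p = 0.00519). Tfap2a, which encodes AP-2 alpha, read 7.56, 7.66 and 7.47 in the brain lines against 8.04, 8.06 and 8.25 in the primary lines (-0.55 ± 0.08, adjusted p = 0.00816). Sox5 was called lower too (-0.36 ± 0.07, adjusted p = 0.0242), a call that did not hold without brain lines 1 or 2, or primary lines 1, 2 or 3 (adjusted p up to 0.0864). Nr2f1 (COUP-TF1), an orphan nuclear receptor, read 7.03, 6.82 and 6.61 in the brain lines against 7.60, 7.66 and 7.96 in the primary lines (-0.92 ± 0.13, adjusted p = 0.00597). The fall of Tfap2a did not pass when the median of its chromosome was taken off each array (adjusted p = 0.0725); those of Foxc2, Foxl1, Sox9 and Nr2f1 did. In the lung lines Foxc2 was at 8.30, 8.26 and 8.14 and Sox9 at 9.37, 9.40 and 9.25, above all brain lines in both.

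Of the calls among chromatin regulators 2 held in every fit that left out 1 line (1.03% of the list, against 0.983% of all genes), and of those among RNA-binding factors both did (1.57%). Of 195 chromatin modifiers and remodelers, 2 were called higher (1.03%) and 6 lower (3.08%), against 1.56% and 1.57% of all genes. Kmt5b, which methylates histone H4, read 7.80, 7.75 and 7.78 in the brain lines against 8.35, 8.46 and 8.16 in the primary lines (-0.54 ± 0.09, adjusted p = 0.0107). Smarcc2, a subunit of the SWI/SNF remodeler, read 9.01, 9.15 and 9.09 in the brain lines against 9.45, 9.46 and 9.53 in the primary lines (-0.40 ± 0.06, adjusted p = 0.0112). The call of Smarcc2 was lost with each array centred on the median of its probe sets (adjusted p = 0.0553). Of 411 zinc finger genes 2 were called higher and 6 lower (1.95% in all, against 3.13% of all genes). Only Zfp358 held in every fit (-0.87 ± 0.14, adjusted p = 0.0119). Zic5, a developmental factor of that list, was called higher (0.86 ± 0.14, adjusted p = 0.0137), a call that did not hold without primary lines 1 or 2 (adjusted p up to 0.06). Of 127 RNA-binding and splicing factors, 2 were called, both higher (1.57%, against 1.56% of all genes). Igf2bp1, a fetal protein that stabilizes Myc and other mRNAs, was 2.84-fold higher, at 7.94, 7.83 and 8.33 in the brain lines against 6.84, 6.54 and 6.20 in the primary lines (1.51 ± 0.17, adjusted p = 0.00271), and the lung lines lay between, at 7.09, 7.29 and 7.30. Esrp2, the epithelial splicing regulator, read 7.27, 7.50 and 7.26 in the brain lines against 6.52, 6.86 and 6.50 in the primary lines (0.71 ± 0.11, adjusted p = 0.00935).

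Genes that make protein and genes that tag it for breakdown were called at shares of up to 4.17%, against 3.13% of all genes. None of 60 ribosomal proteins passed; the median change was 0.06, and Rplp1 had the smallest p (0.24 ± 0.07, adjusted p = 0.119). The medians were 0.13 for 77 mitochondrial ribosomal proteins, 0.11 for 90 translation factors and tRNA synthetases and 0.08 for 48 proteasome subunits, with 1, 2 and 2 members called higher and 1, 0 and 0 lower (2.60%, 2.22% and 4.17%). Both proteasome calls, Psma5 and Psmb4, are genes of chromosome 3 and did not pass with the chromosome median taken off (adjusted p = 0.362 and 0.313). Of the fits that left out 1 line, the only one in which either call held was that without brain line 2 (adjusted p up to 0.119 and 0.12). Of 420 ubiquitin ligases and deubiquitinases, 6 were called higher and 10 lower (3.81%). Klhl24, a substrate adaptor for cullin 3, was 2.76-fold lower, at 6.67, 7.05 and 6.89 in the brain lines against 7.94, 8.32 and 8.74 in the primary lines (-1.46 ± 0.19, adjusted p = 0.00491). Kctd15 (-0.75 ± 0.12, adjusted p = 0.0104) and the F-box gene Fbxo25 (-0.70 ± 0.10, adjusted p = 0.00677) were lower as well. Siah2, a ligase that responds to low oxygen, rose (0.72 ± 0.11, adjusted p = 0.0111), as did Rnf125 (0.67 ± 0.09, adjusted p = 0.00539). Of 104 chaperones, 1 was called higher and 3 lower (3.85%). Hspa4l, of the Hsp110 family, read 8.80, 8.89 and 9.05 in the brain lines against 9.45, 9.65 and 9.48 in the primary lines (-0.62 ± 0.09, adjusted p = 0.00822), and its relative Hsph1 fell by 0.65 on the log2 scale (adjusted p = 0.012), a call that did not hold without primary line 2 (adjusted p = 0.0525).

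In metabolism, the calls that held in every fit lay in lists of several routes. Of 150 sphingolipid and phospholipid enzymes, 3 were called higher (2.00%) and 4 lower (2.67%), against 1.56% and 1.57% of all genes. Smpdl3b, a sphingomyelinase-like membrane protein, read 9.37, 9.61 and 9.70 in the brain lines against 8.67, 8.66 and 8.67 in the primary lines, with an SD of 0.0085 over the primary lines (0.89 ± 0.09, adjusted p = 0.00159). Lpcat4, which remodels phospholipids, rose (0.76 ± 0.10, adjusted p = 0.00568), while Plin3, which coats lipid droplets, and Abhd2, a lipase of the alpha/beta hydrolase family, fell (-0.70 ± 0.09, adjusted p = 0.00491, and -0.72 ± 0.12, adjusted p = 0.0131). Aldh3a2, the fatty aldehyde dehydrogenase, read 8.72, 8.50 and 8.24 in the brain lines against 9.77, 9.90 and 10.10 in the primary lines (-1.43 ± 0.13, adjusted p = 0.00116), and the lung lines, at 9.80, 9.95 and 9.78, lay with the primary lines. Hsd17b7, an enzyme of sterol and estrogen synthesis, read 10.04, 10.17 and 9.97 in the brain lines against 9.02, 9.02 and 9.33 in the primary lines (0.94 ± 0.14, adjusted p = 0.00979). Rdh11, a retinol dehydrogenase, read 9.75, 9.70 and 9.95 in the brain lines against 8.75, 9.08 and 8.999 in the primary lines (0.86 ± 0.14, adjusted p = 0.0121). Got1, the cytosolic aspartate aminotransferase, rose by 0.48 ± 0.07 (adjusted p = 0.00962), and Mat2b, the regulatory subunit of methionine adenosyltransferase, fell (-0.45 ± 0.07, adjusted p = 0.00816). Of 105 genes of nucleotide metabolism, 4 were called higher (3.81%) and 1 lower (0.952%), against 1.56% and 1.57% of all genes. None of these calls held in every fit. Entpd3, Entpd4 and Entpd6, genes of 1 family, were among those called higher (1.02, 0.43 and 0.53). The call of Entpd3 did not hold without brain line 2, or primary lines 2 or 3 (adjusted p up to 0.0701). That of Entpd4 did not hold without brain lines 1 or 3, or primary lines 1, 2 or 3 (adjusted p up to 0.0642), and that of Entpd6 did not hold without brain lines 2 or 3, or primary lines 2 or 3 (adjusted p up to 0.0828). Of 74 enzymes of the TCA cycle, pyruvate and pentose phosphate routes, 3 were called higher (4.05%, against 1.56% of all genes) and none lower. The median change was 0.10, and none of the 3 calls held in every fit.

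The calls were not spread evenly over the chromosomes, by the RefSeq assignment of 19842 of the genes. Chromosome 3 held 43 genes called higher and 6 called lower of 943, chromosome 8 held 8 and 67 of 955, and chromosome 13 held 5 and 30 of 732. On the remaining chromosomes 1.48% of 17212 genes were called higher and 1.22% lower. Within chromosome 8, the 312 genes between Insr and Galnt7 held 45 of the falls and no rise, and the other 643 genes held 22. The ends of this run were set with earlier results of these data known, so its counts describe it and do not test it. Over genes above the level of the unnamed probe sets in both origins, the median change was 0.10 on chromosome 3, -0.06 on chromosome 8 and -0.09 on chromosome 13. On chromosome 3 the brain lines stood 0.08, 0.06 and 0.13 above the primary mean and the primary lines at -0.04, 0.00 and 0.03. On chromosome 13 the groups overlapped: the brain lines stood at -0.16, -0.10 and -0.05, the lung lines at -0.14, -0.07 and -0.06, and the primary lines at -0.06, -0.02 and 0.08. Chromosome 14 was higher in brain lines 1 and 3, at 0.08 and 0.15, and not in brain line 2, at -0.01, and chromosome X was lower in brain line 3 alone, at -0.21.

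**Figure D4:**
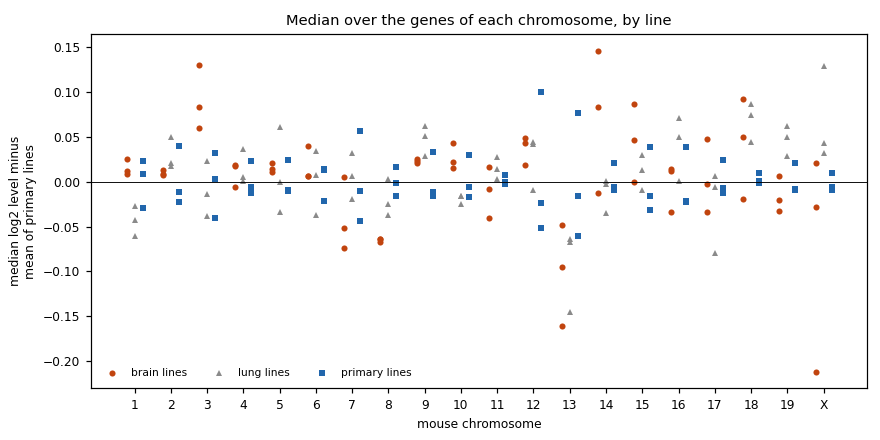
Median over the genes of each mouse chromosome of the log2 level minus the mean of the primary lines, 1 point per line, with brain lines as circles, lung lines as triangles and primary lines as squares. The 3 brain lines lie above all other lines on chromosome 3 and below all other lines on chromosome 8.

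Named genes with these locations include the rises of Pkia, Csf1, Prkci, Cgn and Siah2 and the falls of Slc7a11, Pde5a and Hspa4l on chromosome 3. They also include the falls of Adgre5, Plcg2, Csgalnact1, Map1lc3b, Foxc2, Foxl1, Fbxo25 and Zfp358 on chromosome 8 (Fbxo25 and Zfp358 inside the run from Insr to Galnt7), the rises of Podnl1 and Esrp2 there, and the falls of Pik3r1, Nr2f1 and Tfap2a and the rise of Slc25a48 on chromosome 13. When the median of its chromosome was taken off each array, an analysis chosen after these counts had been seen, 700 genes were called (363 higher and 337 lower) and 128 of the 624 original calls were lost. Of the 60 named genes whose call held in every fit that left out 1 line, 59 passed here too, all but Tfap2a. Calls lost here include those of Clcf1 (adjusted p = 0.0586), Map1b (0.0989) and Entpd4 (0.118). Those of Mcoln1, Psma5 and Psmb4 are given above. Chromosome 3 then held 17 rises and 23 falls, chromosome 8 held 14 and 37, and chromosome 13 held 13 and 20. The run from Insr to Galnt7 held 23 of the falls on chromosome 8. What sets the shifts of whole chromosomes was not tested.

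**Figure D5:**
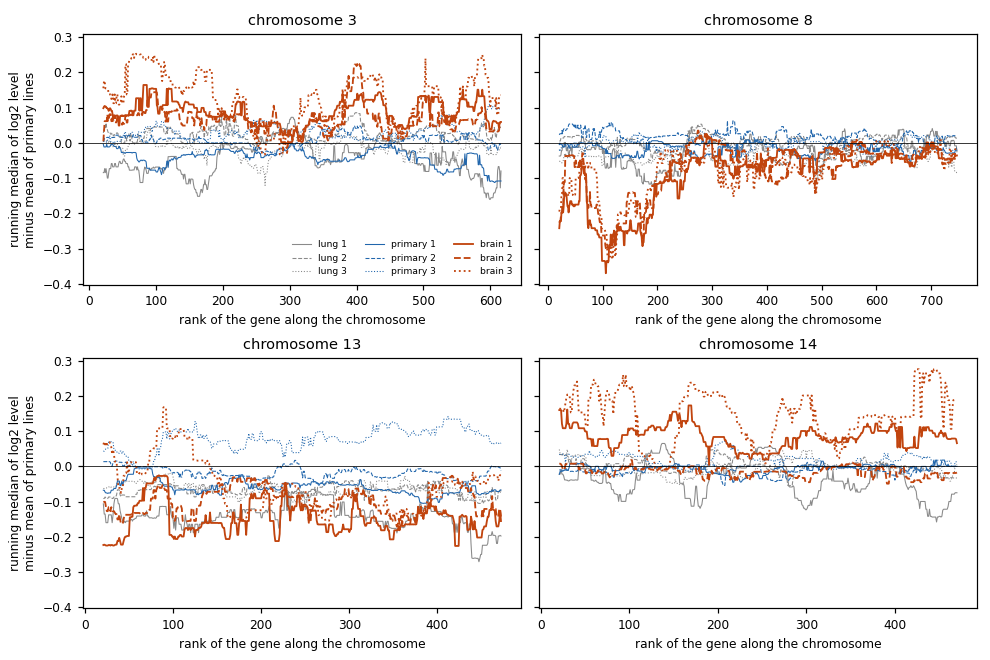
Running median over 41 neighboring genes of the log2 level minus the mean of the primary lines, against the rank of the gene along chromosomes 3, 8, 13 and 14, for each brain (red), lung (gray) and primary line (blue). The brain lines dip together in the first part of chromosome 8 and lie above the primary lines along most of chromosome 3, and on chromosome 14 brain line 2 stays with the primary lines.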

How the data were processed

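RNA of 9 cultured lines was hybridized to Affymetrix Mouse Gene ST arrays, 1 array for each line. The deposited values are log2 intensities that the authors made with RMA (background correction, quantile normalization and a summary per probe set), per the submitters' processing notes; the log base was read from their range, and the version of RMA is not given in the sources used here. Of 35557 probe sets, 21789 carried 1 gene symbol in the platform's annotation, 1621 several and 12147 none. Where a gene had several probe sets (999 genes), only the brightest by mean level over the 9 arrays was kept. This left 19938 genes, 19856 of them in the RefSeq table of assembly GRCm38.p6.

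The test was limma 3.58.1 (lmFit and eBayes, two-sided, R 4.3.3) with all 9 arrays in the model and 1 mean per origin, which left 6 residual degrees of freedom besides 3.72 from the prior. A gene counted as called when its Benjamini-Hochberg adjusted p was under 0.05. The script was checked on simulated data. With 3 lines per group, no exact permutation test can reach a two-sided p under 0.1, and none is given.

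The comparison, the 64 gene lists, the 9 marker lists and the run from Insr to Galnt7 were chosen with earlier results of these data known. Lists are described by counts and medians, with no test, and 1 list and its 2 named genes whose call held are not reported here. Of 1465 symbols written singly in them, 102 matched no tested gene and are not analysed here. The rule named, per list, up to 5 rises and 5 falls among called genes whose lines did not overlap and whose group means were at or above the median of the unnamed probe sets, and up to 2 members with the smallest p in a list with none; most of those described kept their call without any 1 line, a choice made after those fits were seen. Genes named outside the rule are Gfap, Aif1, Map2, Mbp, Krt8, Krt18, Gabarap, Ulk2, Tnfsf10, Cldn2, Gatm and Slc14a1. The alternatives tried are given with their effect in the closing section.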

Additional observations from a re-analysis of the deposited data

How the results depend on the processing

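Every count below is of genes called between brain and primary lines, with 624 calls (311 higher, 313 lower) as reported. With each line left out in turn, the count ranged from 273 to 556, with 135 to 283 higher and 124 to 273 lower. It was 197 (107 higher, 90 lower) in a model of the brain and primary arrays alone, 51 (19 and 32) when variances were not moderated, 210 (100 and 110) with every probe set as its own feature, 157 (83 and 74) at an adjusted p under 0.01, and 117 (66 and 51) at a change of at least 2-fold. The stricter thresholds lower the count by construction; the cause was not tested for the rest. Centring each array on the median of its probe sets gave 512 calls with 199 lower, and centring on the median of its genes, added after that split was seen, gave 677 with 218 lower. Repeated quantile normalization gave 784 calls, an intensity trend together with a robust prior 659, weighted arrays 831, leaving out the dimmest genes 828, and taking off chromosome medians 700. Of the 60 named genes whose call held without any 1 line, 47 passed in the model of brain and primary arrays alone, 15 without moderation and 57 with every probe set. The 190 named calls kept their direction in every setting that was run. Because the rule asked for lines that do not overlap, only the settings that rescale the arrays could have turned it.

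A model with the replicate number as a block called 839 genes, 418 higher and 421 lower, and 581 of the 624. The mice of the groups are separate animals, and the deviations of same-numbered brain and primary lines from their group means correlated at 0.0666, -7e-04 and -0.0442, so the numbers do not pair the lines. Without detection calls, signal over background is known only through the unnamed probe sets.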
